A study of Mus musculus with 12 samples.

Results

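The genes described here are 38 genes of NF-kappaB signalling and innate inflammation, listed by name. The list holds the NF-kappaB subunits, the IkappaB proteins, feedback regulators, induced effector genes, cytokines, receptors, adaptors and C/EBP transcription factors. All 38 were found among the 35896 genes with an entry in the data. RNA was taken from whole uteri of 12 wild type Swiss Webster female mice aged 8 to 12 weeks, with 3 samples per stage of the ovarian cycle, which runs through proestrus, estrus, metestrus and diestrus (4 stages). It was read with 3′ TagSeq, which counts polyadenylated transcripts from reads at their 3′ ends. No group was labelled with a treatment, a transgene or a mutation, and no pooling of animals was described. The design asks which uterine transcripts differ between stages. P-values rest on the spread between samples of the same stage, estimated together over all 12 samples. How the stage of a mouse was assigned is not given in the sources used here.

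NF-kappaB is a family of transcription factors that work in pairs and are held inactive in the cytoplasm by IkappaB proteins. Toll-like receptors, interleukin-1 receptors and tumor necrosis factor receptors activate a kinase that marks IkappaB for destruction, and the freed subunits then switch on cytokines, adhesion molecules and their own inhibitors, including IkappaB itself. In the uterus the pathway is known for the response to bacteria, the entry of leukocytes and the events of implantation and labour.

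NF-kappaB binds short kappaB sites in promoters, and 28 of the 38 members had a promoter window in the RefSeq sequences of the mouse build GRCm38.p6. In the 250 bases before the start, 10 of these 28 members (35.7%) held a match to the kappaB consensus, a degenerate motif 10 bases long, searched on both strands. Over all 27025 genes with a window, 1204 (4.46%) held one. The 5 sequences that follow are windows with a match from 5 genes whose levels differ widely in the results: the inhibitor Nfkbia, the subunits Rel and Nfkb2, the receptor Tlr2, and Il6, which had no count. Each is written 5′ to 3′ along the gene's strand and ends at the base before the start, with the consensus matches in capitals.
Nfkbia (chr12:55492648-55492897, minus strand): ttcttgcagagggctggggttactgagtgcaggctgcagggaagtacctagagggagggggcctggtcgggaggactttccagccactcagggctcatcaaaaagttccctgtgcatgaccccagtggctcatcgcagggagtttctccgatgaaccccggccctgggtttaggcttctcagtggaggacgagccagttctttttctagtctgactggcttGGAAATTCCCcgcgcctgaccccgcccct
Rel (chr11:23770970-23771219, minus strand): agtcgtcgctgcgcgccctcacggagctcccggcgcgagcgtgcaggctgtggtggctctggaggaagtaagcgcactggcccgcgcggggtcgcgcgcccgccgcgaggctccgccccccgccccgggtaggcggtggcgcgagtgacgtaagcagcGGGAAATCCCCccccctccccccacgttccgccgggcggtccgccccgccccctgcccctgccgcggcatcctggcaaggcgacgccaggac
Tlr2 (chr3:83841609-83841858, minus strand): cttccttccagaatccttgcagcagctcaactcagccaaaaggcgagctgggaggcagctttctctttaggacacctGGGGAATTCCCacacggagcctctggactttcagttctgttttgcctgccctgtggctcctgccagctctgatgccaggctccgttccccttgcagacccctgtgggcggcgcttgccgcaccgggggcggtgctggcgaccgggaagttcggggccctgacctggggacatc
Nfkb2, first of its windows (chr19:46304487-46304736, plus strand): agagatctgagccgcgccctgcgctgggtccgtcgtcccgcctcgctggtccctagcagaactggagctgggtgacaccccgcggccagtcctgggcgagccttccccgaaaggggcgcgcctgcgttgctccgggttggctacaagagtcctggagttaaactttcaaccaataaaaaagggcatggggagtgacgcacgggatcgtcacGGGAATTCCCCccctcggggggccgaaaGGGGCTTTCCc
Il6 (chr5:30012864-30013113, plus strand): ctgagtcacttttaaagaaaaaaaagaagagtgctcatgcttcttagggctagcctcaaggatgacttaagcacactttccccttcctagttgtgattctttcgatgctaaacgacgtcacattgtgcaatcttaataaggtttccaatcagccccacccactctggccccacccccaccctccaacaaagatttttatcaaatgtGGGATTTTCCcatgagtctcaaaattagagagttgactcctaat
A match occurred in 4 of 11 members with a window that differed between stages (Il1r1, Nfkbia, Rel and Tlr2). It also occurred in 4 of 10 that were tested and not called (Nfkb2, Nfkbie, Sod2 and Tnip1) and in 2 of 7 that were too low to test (Il6 and Tnfaip3). A match describes these letters only, and binding was not measured.

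The libraries held 1652841 to 2200563 estimated counts, and 15741 to 16557 genes had a count in a sample. Levels are given in CPM, counts scaled to library size and adjusted with TMM factors that ran from 0.908 to 1.05. A count of 3, the most that a count of 0 allows, stood for 1.37 to 1.83 CPM depending on the library, and it covers counting error only. Gene positions are those of GENCODE M21 on GRCm38, where all members are protein coding. Samples are named by stage and replicate number, and values follow that order: numbers 1 to 3 in proestrus, 3 to 5 in estrus, 5 to 7 in metestrus and 3 to 5 in diestrus. The uterine receptors Esr1 and Pgr together reached 285 to 593 CPM and the stromal markers 4021 to 6740.2 CPM in every library, while ovary markers stayed at or under 1.01 CPM and adipocyte markers at or under 3.55 CPM. Metestrus 7 stood apart in its leukocyte markers, as given with the marker values, and the numbers of members called in comparisons with metestrus are therefore also given without it.

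Of the 38 members, 30 passed the filter on low counts and were tested with edgeR's quasi-likelihood F test. The filter asked for about 5.38 CPM in at least 3 libraries, and 2 of the 30, Il1a and Zc3h12a, passed it only through the estrus samples. Between stages, 16 of the 30 tested members differed (53.3%), against 23.2% of all 12052 tested genes, at an adjusted p under 0.05. Of these 16, the highest mean was in estrus for 15 and in metestrus for 1, Il1r1. Among all genes that differed, 46.8% had their highest mean in estrus. Without Il1a and Zc3h12a, which the filter let in through the stage where they were high, 14 of 28 differed. Both are among the 15 with their highest mean in estrus. Without metestrus 7 the F test called 19 of 32 tested members, where it called 26% of all genes, and without estrus 4 it called 11 of 31 (15.6% of all genes).

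**Figure D1:**
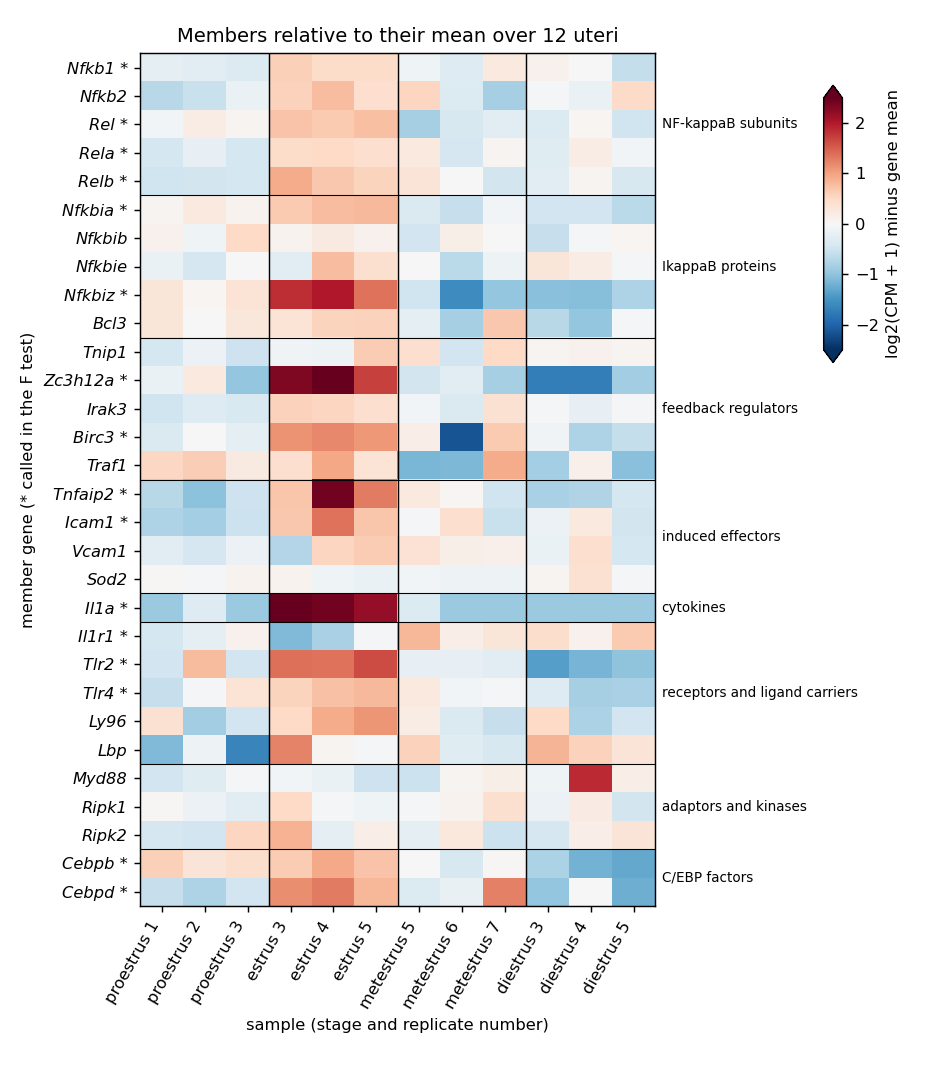
Level of each tested member in each uterus as log2(CPM + 1) minus the mean of that gene over the 12 samples, with genes in rows by role and samples in columns by stage. An asterisk marks the 16 members that differed in the F test, and the 3 estrus columns hold most of the red cells, with Il1r1 the reverse.

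Many members were higher in estrus than in proestrus, led by Tnfaip2, Icam1, Cebpd and Nfkbiz (log2 differences of 1.57 to 2.49) among the 28 that did not pass the filter only through estrus. Levels were higher in estrus for 17 of the 30 tested members (56.7%) and lower for 0, where 9.67% of all genes were higher, 7.46% lower and 17.1% different in either direction. At an unadjusted p under 0.05, edgeR, DESeq2 and limma-voom each gave 0 members lower in estrus. The median log2 difference over the 30 was 0.79, against 0.02 over all tested genes, and 27 of 30 were positive. All 3 estrus samples lay above all 3 proestrus samples for 21 members, an arrangement seen in 20.9% of all genes. The 21, the 27 and the median include Il1a and Zc3h12a, which the filter let in through their high estrus values. Without the 2 members that passed only through estrus, 15 of 28 were called. The count was 10 of 32 tested members without proestrus 1, where 9.87% of all genes were called, 11 of 32 without proestrus 3 (8.9% of all genes) and 11 of 32 without estrus 3 (11.1%). Macrophage and monocyte markers summed to 368 to 429.6 CPM in proestrus and 901 to 994 in estrus, and their part in the difference was not tested. In bulk tissue, more cells of a type and more RNA per cell cannot be told apart.

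In the stages after estrus, the members that differed from estrus were lower except Il1r1. In metestrus 8 members were lower than in estrus and 1 was higher, together 30% of those tested, against 4.73% of all genes lower, 2.83% higher and 7.56% in either direction. Leaving out Il1a and Zc3h12a gave 7 of 28. Without metestrus 7 this comparison called 12 of 32 members, where it called 7.56% of all genes, and without estrus 4 it called 7 of 31 (3.48% of all genes). In diestrus 14 were lower than in estrus and 1 was higher, together 50%, against 13% lower, 9.72% higher and 22.8% in either direction. Leaving out Il1a and Zc3h12a gave 13 of 28, and without estrus 4 the comparison called 10 of 31, where it called 16% of all genes. The median log2 difference of the 30 was −0.68 in metestrus and −0.98 in diestrus, beside 0.01 and 0.00 over all tested genes. All 3 metestrus samples lay under all 3 estrus samples for 16 members, as in 14.3% of all genes, and all 3 diestrus samples did so for 19, as in 22.4%. The 16, the 19 and both medians include Il1a and Zc3h12a. These comparisons share the estrus samples.

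Between the other stages few members differed. Proestrus was higher than diestrus for Cebpb, Nfkbia, Nfkbiz and Tlr2 and lower for Lbp, which made 16.7% of the members against 8.53% of all genes (4.62% higher and 3.91% lower). This count was 2 of 32 tested members without diestrus 4, where 4.97% of all genes were called. It was 3 of 32 without proestrus 1 (5.8% of all genes), proestrus 3 (5.15%), diestrus 3 (5.93%) or diestrus 5 (5.49%). Without estrus 4 it was 3 of 31 (7.46%). From metestrus to diestrus 1 member was lower, Cebpb, or 3.33% against 0.224% of all genes (0.133% higher and 0.0913% lower). Without metestrus 7 that count was 0 of 32 (0.671% of all genes). Between proestrus and metestrus 1 member was lower in metestrus, Nfkbiz, or 3.33% against 4.31% (2.49% higher and 1.82% lower). Without metestrus 7 the count was again 1, of 32 tested (1.68% of all genes), but Nfkbiz was not called. The medians of the members were −0.09 for proestrus against diestrus, −0.13 for diestrus against metestrus and 0.14 for metestrus against proestrus.

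**Figure D2:**
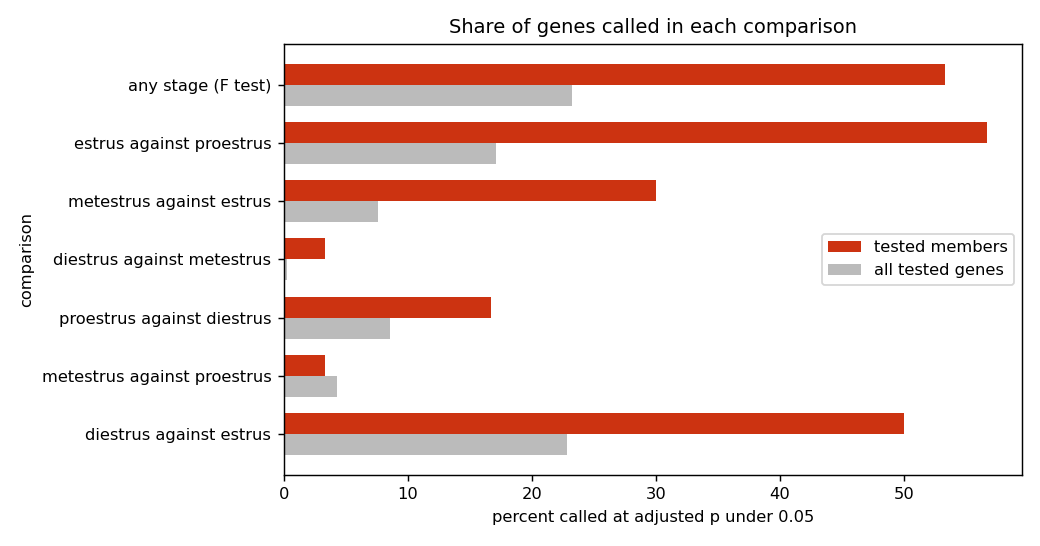
Percent of the 30 tested members and of all 12052 tested genes with an adjusted p under 0.05, for the F test and for each of the 6 pairs of stages. The member bars are longer than those of all genes except for metestrus against proestrus, where they are 3.33% and 4.31%.

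All 5 subunits were higher in estrus than in proestrus. Rel (chr11:23736847-23770970, minus strand), the c-Rel subunit that acts mainly in blood cells, was measured at 20, 24.3 and 22.3 CPM in proestrus, 35.3, 33.7 and 36.2 in estrus, 11.4, 15.8 and 17.3 in metestrus and 16.5, 21.8 and 14.7 in diestrus. Estrus samples did not overlap any other stage. The log2 difference was 0.66 ± 0.20 (SE, adjusted p = 0.0365) from proestrus to estrus, −1.25 ± 0.21 (adjusted p = 0.00378) from estrus to metestrus and −0.98 ± 0.20 (adjusted p = 0.00375) from estrus to diestrus. Relb (chr7:19606217-19629438, minus strand), which pairs with p52 in the noncanonical arm, was measured at 6.27, 6.47 and 6.6 CPM in proestrus, 18.6, 15.4 and 14.2 in estrus, 11.9, 9.47 and 6.56 in metestrus and 7.48, 9.89 and 6.79 in diestrus. Proestrus values lay close together and under every estrus value, with a log2 difference of 1.3 ± 0.29 (adjusted p = 0.00937), and diestrus was lower than estrus by 0.98 ± 0.28 on the log2 scale (adjusted p = 0.0243). Metestrus against estrus was not called for Relb (−0.77 ± 0.28, adjusted p = 0.115). Rela (chr19:5637483-5648130, plus strand), which encodes the p65 transactivating subunit, stood at 25.1, 29.6 and 24.9 CPM in proestrus, 47.6, 48.6 and 46.3 in estrus, 41, 25.2 and 35.8 in metestrus and 27.4, 39.1 and 32.8 in diestrus. Estrus was again the highest stage without overlap, with a log2 difference of 0.84 ± 0.19 from proestrus (adjusted p = 0.0104), and that of diestrus from estrus was −0.52 ± 0.19 (adjusted p = 0.0624). That of metestrus from estrus was −0.47 ± 0.19 (adjusted p = 0.145), so neither later stage was called for Rela.

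Nfkb1 (chr3:135584655-135691547, minus strand), which encodes p105 and its product p50, was measured at 24.5, 23.7 and 22.3 CPM in proestrus, 43.9, 40 and 39.8 in estrus, 26.5, 22.7 and 34 in metestrus and 30.9, 28.7 and 18.7 in diestrus. Its 3 estrus samples lay above the other 9, and the log2 difference was 0.81 ± 0.20 (adjusted p = 0.0163) from proestrus and −0.65 ± 0.20 (adjusted p = 0.0318) in diestrus against estrus. In metestrus against estrus it was −0.57 ± 0.20 and not called (adjusted p = 0.101). Nfkb2, the precursor of p52, had means of 67.2 ± 13.7 CPM in proestrus, 139.8 ± 17.2 in estrus, 86.6 ± 43.1 in metestrus and 101 ± 25.2 in diestrus (mean ± SD, n = 3). It differed between proestrus and estrus by 1.05 ± 0.29 on the log2 scale (adjusted p = 0.024), but metestrus 5 and diestrus 5 reached estrus levels and the F test gave an adjusted p of 0.0652. Exons of Nfkb2 overlap antisense genes over 18.1% of their length, and since the use of strand in counting is not given in the sources used here, its counts are uncertain.

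Several of the subunit calls depended on single libraries or settings, with adjusted p values as follows. For Rel, estrus against proestrus was lost without proestrus 1, 2 or 3 or estrus 3, 4 or 5 (0.0612 to 0.119), in DESeq2 (0.106) and with no filter on low counts (0.095). That of Nfkb1 was lost without proestrus 3 or estrus 3 (0.0515 to 0.0637), and that of Nfkb2 without proestrus 1 or 2 or estrus 3 or 4 (0.0569 to 0.094). Diestrus against estrus was lost for Relb without estrus 3 or 4 or diestrus 3 or 5 (0.0632 to 0.085), in DESeq2 (0.0793) and with no filter on low counts (0.0695) and for Nfkb1 without estrus 3, 4 or 5 or diestrus 4 or 5 (0.0596 to 0.119), in DESeq2 (0.0709) and with no filter on low counts (0.0652). In the F test, Rela was lost without proestrus 1 or 3 or estrus 3, 4 or 5 (0.0752 to 0.109), Relb without estrus 3 or 4 (0.0682 to 0.0884) and in DESeq2 (0.0502) and Nfkb1 without proestrus 1, 2 or 3, estrus 3, 4 or 5 or diestrus 4 (0.0517 to 0.116) and in DESeq2 (0.0586). The calls of Relb and Rela in estrus against proestrus, and those of Rel in metestrus and diestrus against estrus, held in every one of these fits.

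**Figure D3:**
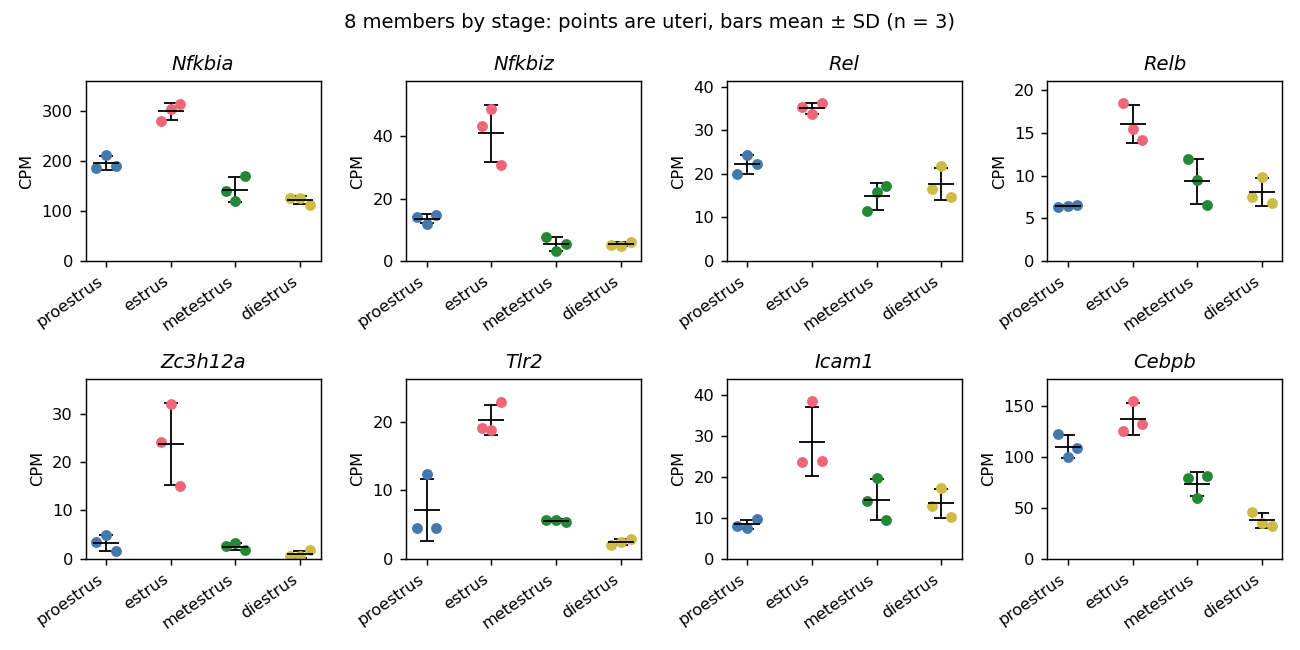
CPM of Nfkbia, Nfkbiz, Rel, Relb, Zc3h12a, Tlr2, Icam1 and Cebpb in each uterus by stage, on linear axes that start at 0. Points are single samples and bars are the mean ± SD (n = 3), and in all 8 genes the 3 estrus points lie above those of every other stage.

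Of the 5 IkappaB family genes, Nfkbia and Nfkbiz differed between stages. Nfkbia (chr12:55489410-55492647, minus strand) encodes IkappaBalpha, the main inhibitor and itself a target of NF-kappaB, and the window printed above holds a kappaB match close to its start. It was measured at 187, 212 and 190.3 CPM in proestrus, 280.2, 304 and 315 in estrus, 139.5, 119.9 and 169.9 in metestrus and 127, 127 and 112 in diestrus. By their sample ranges the stages formed 3 levels, with estrus highest, proestrus next, and metestrus and diestrus lowest, where the latter pair overlapped. Metestrus against proestrus was not called (log2 difference −0.46 ± 0.14, adjusted p = 0.081). Estrus exceeded proestrus by 0.61 ± 0.14 on the log2 scale (adjusted p = 0.00962), metestrus was lower than estrus by 1.07 ± 0.14 (adjusted p = 0.00076) and diestrus by 1.3 ± 0.14 (adjusted p = 5.74e-05). Proestrus was also higher than diestrus, by 0.69 ± 0.14 (adjusted p = 0.00811). These 4 calls held when each library was left out and under every other setting run.

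Nfkbiz (chr16:55811375-55838899, minus strand) encodes IkappaBzeta, a nuclear family member that helps to switch on secondary targets of Toll-like and interleukin-1 receptors. It was measured at 14.3, 11.9 and 14.7 CPM in proestrus, 43.3, 48.6 and 30.7 in estrus, 7.78, 3.16 and 5.37 in metestrus and 4.99, 4.94 and 6.23 in diestrus, and it had the lowest adjusted p of all members in the F test (3.05e-05). Every estrus value exceeded every other value. The log2 difference was 1.57 ± 0.26 from proestrus to estrus (adjusted p = 0.00183), −2.86 ± 0.29 from estrus to metestrus (adjusted p = 0.000161) and −2.91 ± 0.29 from estrus to diestrus (adjusted p = 3.38e-05). Proestrus lay above diestrus by 1.33 ± 0.32 (adjusted p = 0.018) and metestrus lay under proestrus by 1.29 ± 0.32 (adjusted p = 0.0397), with no overlap in either case. The proestrus to diestrus call was lost without proestrus 1 or 3 or diestrus 3 or 4 (0.0516 to 0.0715), in limma-voom (0.051) and with counts scaled from TPM (0.233), and the proestrus to metestrus call without proestrus 1, 2 or 3, estrus 3 or 4, metestrus 6 or 7 or diestrus 3, 4 or 5 (0.052 to 0.12), in limma-voom (0.0927), with counts scaled from TPM (0.231) and in a fit to the pair of stages alone (0.146).

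The other IkappaB genes did not pass the F test. Nfkbib, which encodes IkappaBbeta, ranged over 11 to 24.4 CPM with an adjusted p of 0.536, and 16.4% of its exon length overlaps antisense genes. Nfkbie, for IkappaBepsilon, ranged over 2.52 to 8.58 CPM (adjusted p = 0.444). Bcl3, a nuclear IkappaB relative that works with p50 and p52, ranged over 3.95 to 14.3 CPM (adjusted p = 0.193). Its log2 difference between diestrus and estrus was −1.12 ± 0.40 (adjusted p = 0.0599).

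Among the 6 feedback regulators, Zc3h12a and Birc3 differed between stages in the F test. Zc3h12a (chr4:125118423-125127840, minus strand) encodes Regnase-1, an RNase that degrades inflammatory mRNAs such as Il6. It was measured at 3.42, 4.85 and 1.52 CPM in proestrus, 24.1, 32 and 15.1 in estrus, 2.59, 3.16 and 1.79 in metestrus and 0.499, 0.494 and 1.7 in diestrus, and the 3 estrus values stood far above the other 9, of which those in diestrus were at or near the detection floor. The fitted log2 difference was 2.84 ± 0.44 (adjusted p = 0.00133) from proestrus to estrus, −3.2 ± 0.47 (adjusted p = 0.00146) from estrus to metestrus and −4.66 ± 0.54 (adjusted p = 8.24e-05) from estrus to diestrus, the last resting on 1, 1 and 3 counts in the diestrus libraries. All of these calls held without any one library, though Zc3h12a passed the filter only through its estrus samples.

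Birc3 (chr9:7848699-7873186, minus strand) encodes cIAP2, a ubiquitin ligase of the tumor necrosis factor receptor complex. Its level was 6.85, 9.16 and 7.61 CPM in proestrus, 21, 22.3 and 20.6 in estrus, 10.4, 1.26 and 14.9 in metestrus and 8.48, 4.94 and 5.66 in diestrus. The estrus values were tight and the highest, while metestrus 6 had the lowest value of all samples and metestrus against estrus was not called. The log2 difference was 1.43 ± 0.46 (adjusted p = 0.0482) from proestrus to estrus and −1.73 ± 0.47 (adjusted p = 0.0176) from estrus to diestrus. The first call was lost without proestrus 1, 2 or 3, estrus 3, 4 or 5 or diestrus 3, 4 or 5 (0.0585 to 0.137), with library totals in place of TMM (0.0514), in DESeq2 (0.0514) and with counts scaled from TPM (0.112). The second was lost without estrus 4 or diestrus 4 or 5 (0.0559 to 0.0695) and with counts scaled from TPM (0.103), and the F test call without proestrus 1, 2 or 3, estrus 3, 4 or 5 or diestrus 3, 4 or 5 (0.0523 to 0.137) and with counts scaled from TPM (0.151). In addition, 11.3% of the 31-base words of Birc3 transcripts occur in other genes, Birc2 among them, so some of its counts may be shared.

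Irak3, a kinase-like inhibitor of Toll-like receptor signalling also called IRAK-M, had means of 5.55 ± 0.399 CPM in proestrus, 11.2 ± 0.633 in estrus, 7.69 ± 2.26 in metestrus and 7.09 ± 0.576 in diestrus (mean ± SD, n = 3). Estrus exceeded proestrus by 1.01 ± 0.30 on the log2 scale (adjusted p = 0.0363), a call that was lost without proestrus 1, 2 or 3, estrus 3, 4 or 5 or diestrus 3, 4 or 5 (0.0501 to 0.106), in DESeq2 (0.137) and with no filter on low counts (0.126). Tnip1, which works with A20, ranged over 17.8 to 40.3 CPM (F test adjusted p = 0.303), and Traf1, a receptor-bound adaptor, over 3.11 to 16.6 CPM (adjusted p = 0.283). Tnfaip3, which encodes the A20 enzyme that removes ubiquitin from pathway proteins, was too low to test. It had 1, 1 and 0 counts in proestrus, 7, 11 and 7 in estrus, 6, 2 and 7 in metestrus and 2, 1 and 3 in diestrus. The estrus to proestrus ratio was 12.6 with an exact 95% counting interval of 3.13 to 109, which covers counting error and not the spread between mice. With no filter on low counts the adjusted p in edgeR was 0.0134.

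Tnfaip2 and Icam1 were the induced effector genes that differed. Tnfaip2 (chr12:111442469-111455018, plus strand), a gene first known from its induction by tumor necrosis factor, was measured at 9.7, 7.55 and 11.2 CPM in proestrus, 27.2, 92.1 and 41.7 in estrus, 19.7, 17 and 11.3 in metestrus and 8.97, 9.39 and 11.9 in diestrus. Estrus values spread widely, from 27.2 in estrus 3 to 92.1 in estrus 4, but none overlapped another stage. The log2 difference was 2.49 ± 0.40 (adjusted p = 0.00158) from proestrus to estrus, −1.73 ± 0.38 (adjusted p = 0.0154) from estrus to metestrus and −2.41 ± 0.39 (adjusted p = 0.000866) from estrus to diestrus. The metestrus call was lost without estrus 4 (0.062), with counts scaled from TPM (0.118) and in a fit to the pair of stages alone (0.0801).

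Icam1 (chr9:21015985-21028817, plus strand) encodes a ligand on endothelial and other cells that leukocytes grip when they leave the blood. It was measured at 7.99, 7.55 and 9.64 CPM in proestrus, 23.5, 38.3 and 23.8 in estrus, 14, 19.6 and 9.54 in metestrus and 13, 17.3 and 10.2 in diestrus. No estrus value fell within the range of another stage. Estrus exceeded proestrus by 1.75 ± 0.31 log2 units (adjusted p = 0.00282) and diestrus was lower than estrus by 1.07 ± 0.29 (adjusted p = 0.0186), while metestrus against estrus gave −0.99 ± 0.30 (adjusted p = 0.0593). The diestrus call was lost without estrus 4 or diestrus 3 or 5 (0.0614 to 0.112). An antisense gene overlaps part of its exons. Vcam1, the matching ligand for integrin alpha4, did not pass the F test (adjusted p = 0.505), with 6.8 to 19.2 CPM. Endothelial markers summed to 1439 to 1571 CPM in proestrus, 1486 to 2028 in estrus, 1508 to 1735 in metestrus and 1243 to 1436 in diestrus, and their part in the Icam1 difference was not tested.

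Sod2, the mitochondrial superoxide dismutase induced by NF-kappaB, varied little, at 80.1 to 117 CPM (F test adjusted p = 0.419). Of its transcript words 26.6% occur in other genes, so its level is uncertain. Saa3, an acute-phase protein gene, was not tested because only 2 libraries passed the filter level. It had 2, 8 and 6 counts in proestrus, 5, 112 and 24 in estrus, 6, 2 and 2 in metestrus and 0, 0 and 2 in diestrus. Estrus 4 and estrus 5 were high, and estrus 3 lay within the proestrus range. With no filter on low counts, edgeR gave Saa3 an adjusted p of 1.15e-06 in the F test, a value that rests on those libraries.

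The cytokines had low counts, and Il1a was the 1 that could be tested. Il1a (chr2:129299610-129309972, minus strand), which encodes interleukin-1alpha, had 0, 1 and 0 counts in proestrus, 17, 16 and 17 in estrus, 1, 0 and 0 in metestrus and 0, 0 and 0 in diestrus. The estrus counts stood for 10.5, 9.15 and 7.79 CPM, and no library of another stage had more than 1 count. The ratio of estrus to proestrus was 50.3 with an exact 95% counting interval of 8.62 to 2025, and diestrus was at least 5.87-fold lower than estrus, taking 3 counts in each diestrus library. The adjusted p was 0.00188 for estrus against proestrus, 0.00387 for metestrus against estrus and 0.00051 for diestrus against estrus. These calls held without any one library, though Il1a passed the filter only through its estrus samples. Il1a shares 11.2% of its exon length with an antisense gene.

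The other cytokines could not be tested. Tnf, which encodes tumor necrosis factor, had 0, 0 and 0 counts in proestrus, 4, 9 and 3 in estrus, 3, 0 and 1 in metestrus and 0, 0 and 0 in diestrus. With no filter on low counts its adjusted p in edgeR was 0.0255 for estrus against proestrus. Its estrus mean was at least 1.85-fold higher than a floor of 3 counts in each proestrus library. Il1b, for interleukin-1beta, had 0, 8 and 0 counts in the estrus libraries and 0 to 2 in every other library, so estrus 4 held most of them. Il1rn, which encodes the interleukin-1 receptor antagonist, likewise had its highest count, 11, in estrus 4, with 5, 2 and 0 in proestrus. Il6 had a count of 0 in all 12 libraries, which allows up to 1.83 CPM in the shallowest.

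Of the receptors, Tlr2 and Tlr4 had their highest mean in estrus, while Il1r1 had its lowest there. Tlr2 (chr3:83836272-83841767, minus strand) recognises bacterial lipoproteins, and the window above shows overlapping kappaB matches upstream of its start. It was measured at 4.56, 12.4 and 4.57 CPM in proestrus, 19.2, 18.9 and 22.9 in estrus, 5.71, 5.68 and 5.37 in metestrus and 1.99, 2.47 and 2.83 in diestrus. Estrus values were the highest without overlap, diestrus values the lowest, and proestrus 2 stood apart from the other proestrus samples. The log2 difference was 1.5 ± 0.35 (adjusted p = 0.0116) from proestrus to estrus, −1.85 ± 0.37 (adjusted p = 0.00963) from estrus to metestrus and −3.04 ± 0.41 (adjusted p = 0.000239) from estrus to diestrus. Proestrus exceeded diestrus by 1.54 ± 0.45 (adjusted p = 0.0488). Estrus against proestrus was lost without proestrus 1 or 3 or estrus 5 (0.0526 to 0.058). Proestrus against diestrus was lost without proestrus 2, estrus 3, 4 or 5, metestrus 5, 6 or 7 or diestrus 3, 4 or 5 (0.0511 to 0.356), with library totals in place of TMM (0.0567), in DESeq2 (0.0879), in limma-voom (0.154) and with counts scaled from TPM (0.211).

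Tlr4 (chr4:66827584-66930284, plus strand) is the receptor for lipopolysaccharide of gram-negative bacteria. Its level was 10.8, 16.2 and 21.3 CPM in proestrus, 24.7, 28 and 29.8 in estrus, 19.7, 15.8 and 16.1 in metestrus and 13, 8.9 and 9.06 in diestrus. Estrus lay above the other stages and diestrus had the lowest mean, and proestrus spread from 10.8 to 21.3 CPM. The test did not call metestrus against estrus. Diestrus was lower than estrus by 1.41 ± 0.26 on the log2 scale (adjusted p = 0.00195), a call that held without any one library. Estrus exceeded proestrus by 0.77 ± 0.25 (adjusted p = 0.0485), a call that was lost without proestrus 1 or 2, estrus 3, 4 or 5, metestrus 6 or 7 or diestrus 3, 4 or 5 (0.0505 to 0.167), with library totals in place of TMM (0.0686), in DESeq2 (0.117), with no filter on low counts (0.0857) and with counts scaled from TPM (0.183).

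Of the members that bring lipopolysaccharide to Tlr4, Lbp showed another pattern. Ly96, which encodes the Tlr4 partner MD-2, ranged over 3.23 to 15.6 CPM, with a log2 difference of 1.22 ± 0.45 between estrus and proestrus (adjusted p = 0.0801). Its 3 estrus samples lay above all proestrus and all metestrus samples. Lbp encodes the lipopolysaccharide-binding protein and had means of 60.6 ± 33.9 CPM in proestrus, 158 ± 84.3 in estrus, 110.2 ± 44.8 in metestrus and 163 ± 29.4 in diestrus (mean ± SD, n = 3). Proestrus was lower than estrus by 1.37 ± 0.41 (adjusted p = 0.0342) and lower than diestrus by 1.43 ± 0.41 on the log2 scale (adjusted p = 0.0439), with the F test at 0.0611. The estrus call was lost without proestrus 1 or 3 or estrus 3 (0.117 to 0.173) and with counts scaled from TPM (0.0649), and the diestrus call without proestrus 1 or 3, estrus 4 or diestrus 3, 4 or 5 (0.0514 to 0.168) and with counts scaled from TPM (0.101). Its mean in diestrus was thus close to that in estrus, whereas Tlr2 and Tlr4 had their lowest means in diestrus.

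Il1r1 (chr1:40225080-40317257, plus strand), the signalling receptor for interleukin-1, ran the other way. It was measured at 14.3, 16.7 and 21.3 CPM in proestrus, 8.66, 10.9 and 19.2 in estrus, 35.8, 22.1 and 24.4 in metestrus and 26.9, 21.3 and 31.7 in diestrus. Estrus 3 and 4 were the lowest of all samples, and estrus 5 lay within the proestrus range. Metestrus exceeded estrus by 1.06 ± 0.30 log2 units (adjusted p = 0.0491) and diestrus exceeded estrus by 1.00 ± 0.30 (adjusted p = 0.0288). The metestrus call was lost without proestrus 1, 2 or 3, estrus 3 or 4, metestrus 5 or 6 or diestrus 3 or 5 (0.0572 to 0.151), with library totals in place of TMM (0.0685), in limma-voom (0.053) and in a fit to the pair of stages alone (0.119). The diestrus call was lost without estrus 3 or 4 or diestrus 3 or 5 (0.0691 to 0.102), and the F test call without proestrus 1, 2 or 3, estrus 3 or 4, metestrus 5 or diestrus 3 or 5 (0.0529 to 0.119) and with library totals in place of TMM (0.057). By stage means, the ligand Il1a was highest and the receptor Il1r1 lowest in estrus, but Il1r1 was not called between estrus and proestrus. Il1rl1, the receptor for interleukin-33, ranged over 1.04 to 5.66 CPM and Cd40, a receptor of antigen-presenting cells, over 1.14 to 12.4 CPM with its highest value in metestrus 5. Neither was tested.

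None of the 3 adaptors and kinases differed between stages in edgeR's F test. Myd88, the adaptor shared by most Toll-like receptors and the interleukin-1 receptor, had 10.8, 12.4 and 15.2 CPM in proestrus, 14.8, 13.7 and 10.5 in estrus, 10.4, 16.4 and 17.3 in metestrus and 14.5, 59.8 and 17.5 in diestrus. Diestrus 4 stood alone and the other 11 samples overlapped across stages, and the F test gave an adjusted p of 0.0956. Exons of Myd88 overlap the antisense gene Acaa1a over 11.3% of their length. Ripk1, a kinase of the tumor necrosis factor receptor complex, ranged over 25.5 to 50.7 CPM (adjusted p = 0.54), and Ripk2, which serves the NOD receptors, over 3.58 to 11.1 CPM (adjusted p = 0.786). At an unadjusted p under 0.05, 1 of the 3 passed in edgeR and in DESeq2 (Myd88) and 0 in limma-voom, and the adjusted count was 0 in all of them.

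Both C/EBP factors differed between stages, with different courses. Cebpb (chr2:167688915-167690418, plus strand), which works with NF-kappaB on acute-phase genes and is needed for uterine decidualization, was measured at 122, 99.7 and 109 CPM in proestrus, 125, 154 and 132 in estrus, 79.4, 60 and 81.1 in metestrus and 45.9, 34.6 and 32.3 in diestrus. All 4 stages were separate in their samples, in the order estrus, proestrus, metestrus and diestrus, but metestrus against proestrus was not called. Proestrus and estrus did not differ beyond the spread between replicates in the test, with a log2 difference of 0.32 ± 0.16 (adjusted p = 0.203). Metestrus was lower than estrus by 0.9 ± 0.17 (adjusted p = 0.00617), and diestrus was lower than estrus by 1.86 ± 0.17 (adjusted p = 1.73e-05) and than proestrus by 1.55 ± 0.17 (adjusted p = 0.00019). Diestrus was also lower than metestrus by 0.97 ± 0.17 (adjusted p = 0.0443), a call lost without proestrus 1, 2 or 3, estrus 3, 4 or 5, metestrus 5 or 7 or diestrus 4 or 5 (0.054 to 0.189), with library totals in place of TMM (0.0813), in limma-voom (0.0691), with counts scaled from TPM (0.0974) and in a fit to the pair of stages alone (0.309).

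Cebpd (chr16:15887286-15891031, plus strand), a fast responder to inflammatory cytokines, was measured at 38.2, 33.4 and 41.1 CPM in proestrus, 129.9, 143 and 103 in estrus, 45.1, 50.5 and 139 in metestrus and 28.9, 58.3 and 24.3 in diestrus. Estrus lay above all proestrus and diestrus samples, and metestrus 7 was as high as estrus. The log2 difference was 1.73 ± 0.39 (adjusted p = 0.00908) from proestrus to estrus and −1.74 ± 0.39 (adjusted p = 0.00602) from estrus to diestrus, and both calls held without any one library. Exons of both genes overlap antisense genes, Tmem189 over 20.7% of the exon length of Cebpb and Spidr over 15% of that of Cebpd. Their counts are uncertain, to an extent that these shares do not give.

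**Figure D4:**
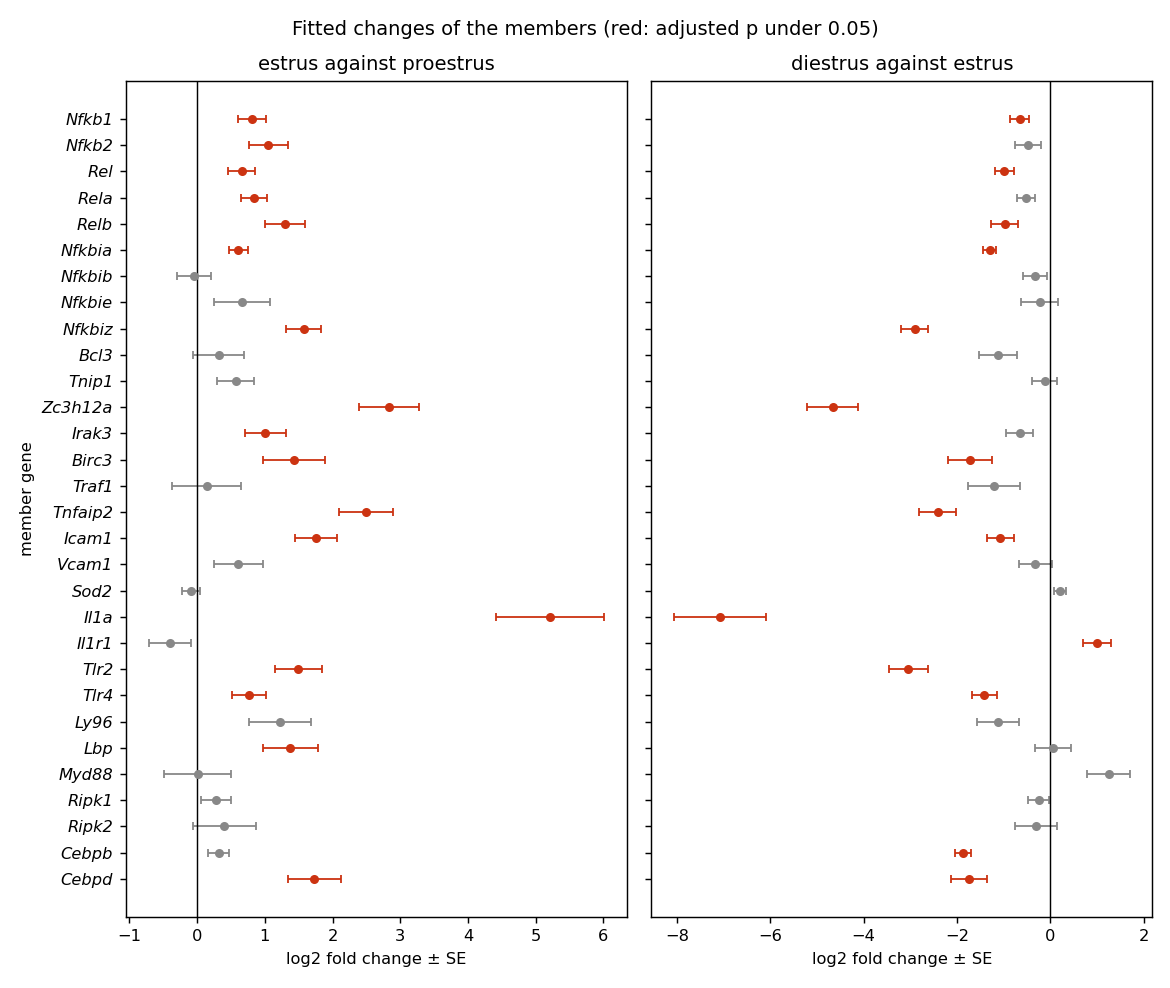
Log2 difference ± SE of each tested member for estrus against proestrus and for diestrus against estrus, with called members in red and others in grey. Most members lie right of 0 in the first panel and left of 0 in the second, and Il1r1 lies on the opposite side.

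The pathway around the members was read from 4 further lists that hold none of them. Of the signal transducers, which carry the signal from receptor to IkappaB, 32 of 35 were tested and 6 differed in the F test, where 23.2% of all genes did. In edgeR 0 were higher in estrus than in proestrus after adjustment, 2 were lower (Irak1 and Ube2n), against 9.67% and 7.46% of all genes, and the median log2 difference was 0.09, beside 0.02 over all tested genes. At an unadjusted p under 0.05, 4 were higher in edgeR and 1 in DESeq2, and limma-voom called 1, Ikbke, after adjustment. In diestrus 6 were lower than in estrus and 1 was higher, against 13% and 9.72% of all genes. In metestrus 3 were lower than in estrus, against 4.73% of all genes. Pycard, the inflammasome adaptor ASC, had means of 87.3 ± 15.4 CPM in proestrus, 80.2 ± 15.6 in estrus, 48.2 ± 2.82 in metestrus and 51.7 ± 2.78 in diestrus (mean ± SD, n = 3). Tirap, the adaptor that brings Myd88 to Tlr2 and Tlr4, had 36.4 ± 5.84 CPM in proestrus, 52.2 ± 8.83 in estrus, 29 ± 5.56 in metestrus and 20.8 ± 8.42 in diestrus (mean ± SD, n = 3). Ube2n, the ubiquitin-conjugating enzyme Ubc13, had 109 ± 8.91 CPM in proestrus, 76.8 ± 2.3 in estrus, 83.6 ± 10.6 in metestrus and 100.5 ± 8.65 in diestrus (mean ± SD, n = 3).

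Of 26 other receptors, 19 were tested and 8 differed, against 23.2% of all genes. Cd14, Il6ra, Osmr and Tnfrsf21 were higher in estrus than in proestrus (9.67% of all genes), and 8 were lower in diestrus than in estrus (13% of all genes). The median log2 difference was 0.17 in the first comparison and −0.65 in the second, beside 0.02 and 0.00 over all tested genes. Cd14, the co-receptor that hands lipopolysaccharide to Tlr4, had means of 20.4 ± 2.9 CPM in proestrus, 119 ± 27 in estrus, 21.9 ± 7.61 in metestrus and 20.6 ± 2.7 in diestrus (mean ± SD, n = 3). Osmr, the oncostatin M receptor, had 7.92 ± 1.09 CPM in proestrus, 27.4 ± 6.16 in estrus, 12.3 ± 6.96 in metestrus and 4.82 ± 0.537 in diestrus (mean ± SD, n = 3). Il17ra, the shared interleukin-17 receptor, had 53.9 ± 5.23 CPM in proestrus, 36.5 ± 5.61 in estrus, 21.7 ± 2.21 in metestrus and 17.8 ± 5.65 in diestrus (mean ± SD, n = 3), so its highest mean was in proestrus.

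Of 24 ligands, 21 were in the data, 9 were tested and 4 differed, against 23.2% of all genes. In estrus Tnfsf10 and Tnfsf13 were higher than in proestrus and Hmgb1 was lower, against 9.67% and 7.46% of all genes, and the median log2 difference was 0.45. Tnfsf10, the death ligand TRAIL, had means of 10.9 ± 1.05 CPM in proestrus, 43.4 ± 5.26 in estrus, 18.5 ± 1.04 in metestrus and 9.11 ± 1.55 in diestrus (mean ± SD, n = 3). Tnfsf13, the B cell ligand APRIL, had 38.1 ± 5.09 CPM in proestrus, 81.7 ± 4.92 in estrus, 39.8 ± 24.4 in metestrus and 18.3 ± 8.23 in diestrus (mean ± SD, n = 3). Tnfsf13b, the B cell survival factor BAFF, had 8.25 ± 0.81 CPM in proestrus, 13.8 ± 1.55 in estrus, 16.8 ± 7.82 in metestrus and 31.3 ± 2.53 in diestrus (mean ± SD, n = 3), with its highest mean in diestrus.

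Of 44 other genes known to be induced by NF-kappaB, 36 were tested and 16 differed, against 23.2% of all genes. In estrus 8 were higher than in proestrus and 1 was lower, against 9.67% and 7.46% of all genes, and the median log2 difference was 0.60. In diestrus 13 were lower than in estrus and 3 were higher, against 13% and 9.72% of all genes, with a median of −0.52. Pim1, a kinase that promotes survival, had means of 92.4 ± 12.9 CPM in proestrus, 185 ± 11.3 in estrus, 63.1 ± 10.1 in metestrus and 38.3 ± 5.09 in diestrus (mean ± SD, n = 3). Ier3, an immediate early gene, had 46.1 ± 5.96 CPM in proestrus, 218 ± 51.3 in estrus, 35.8 ± 9.25 in metestrus and 12.3 ± 1.86 in diestrus (mean ± SD, n = 3), and Ptgs2, the inducible cyclooxygenase of prostaglandin synthesis, had 1.06 ± 0.476 CPM in proestrus, 42.8 ± 20.2 in estrus, 0.383 ± 0.337 in metestrus and 1.23 ± 1.08 in diestrus (mean ± SD, n = 3). Ptgs2 lay under the filter level of 5.38 CPM outside estrus, so it was tested only through its estrus samples. The counts of this list include it, and no count without it was made. Other genes of the further lists and the cell type markers were not checked for passing the filter through estrus alone. How far the filter set their shares, given beside those of all genes, was therefore not tested.

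Leukocyte markers moved with the stages as well. The 11 macrophage and monocyte markers, all with counts, summed, beyond proestrus and estrus, to 544 to 943 CPM in metestrus and 534 to 749.9 in diestrus. Of these, 10 were higher in estrus than in proestrus, against 9.67% of all genes. In metestrus 2 were lower than in estrus (Csf1r and Mrc1), against 4.73% of all genes, and in diestrus 6 were lower than in estrus, against 13%. Ptprc, the CD45 antigen of all leukocytes, stood at 16.2 to 19.9 CPM in proestrus, 41.7 to 57.8 in estrus, 29 to 69.2 in metestrus and 24.3 to 37.4 in diestrus, with its highest value in metestrus 7.

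The other cell type markers were as follows. The 10 neutrophil markers summed to 13.5 to 37.6 CPM in proestrus, 39 to 92.1 in estrus, 12.5 to 27.8 in metestrus and 16.8 to 70.7 in diestrus. Of the 5 tested, Mmp9 was higher in estrus than in proestrus, against 9.67% of all genes. The 6 mast cell markers summed to 18.3 to 27.9 CPM in proestrus, 29.1 to 46.3 in estrus, 51.3 to 97.2 in metestrus and 93.7 to 138 in diestrus. T and NK cell markers reached 12 to 29.6 CPM in proestrus, 19.8 to 36.6 in estrus, 21.3 to 77.5 in metestrus and 17.5 to 32.1 in diestrus, with the highest value in metestrus 7. B cell markers summed to 1.7 to 13.2 CPM and eosinophil markers to 1.26 to 6.79 CPM, with Epx at 0 in every library. The 8 epithelial markers summed to 1642 to 2182 CPM in proestrus, 1347 to 1711 in estrus, 557 to 1148 in metestrus and 504 to 719.9 in diestrus, and smooth muscle markers to 5379 to 7492 CPM in proestrus, 6307 to 8331 in estrus, 4083 to 6334 in metestrus and 5430.2 to 5648 in diestrus. Of the 8 epithelial markers, 0 were higher and 6 lower in diestrus than in estrus, against 9.72% and 13% of all genes. Of the 7 stromal markers, 1 was higher and 4 were lower in estrus than in proestrus, against 9.67% and 7.46%. Markers of stratified squamous epithelium summed to 8.4 to 17.3 CPM. Their part in the member differences was not tested either.

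**Figure D5:**
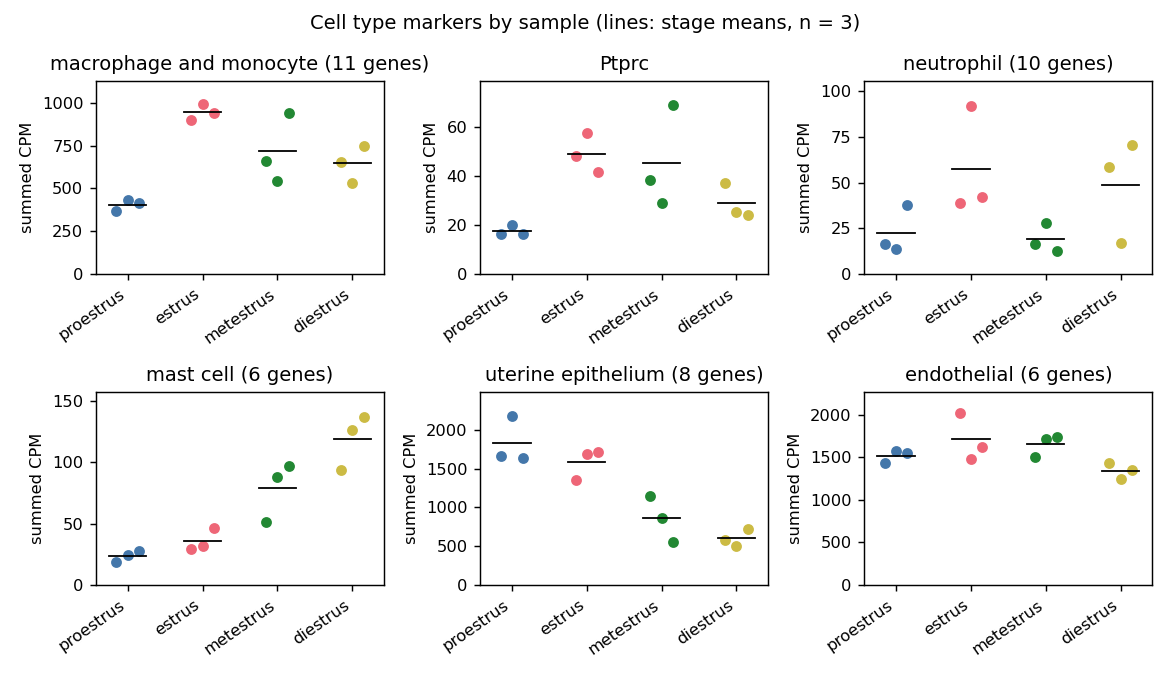
Summed CPM of 6 sets of cell type markers in each uterus by stage, on linear axes from 0, with lines at the stage means (n = 3). Macrophage and monocyte markers were highest in estrus and mast cell markers in diestrus, and Ptprc was highest in metestrus 7.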

How the data were processed

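Polyadenylated RNA of 12 whole uteri, 3 per stage, was read by 3′ TagSeq. The authors deposited 1 table per sample with estimated counts and TPM per transcript, per the file headers, and the submitters' processing notes name kallisto, FastQC and DESeq2. The deposited estimated counts are unscaled, as their differing totals show. Per the file headers, the deposited TPM are per effective length and sum alike across samples. Strand use and the transcript set are not given in the sources used here.

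Transcripts were matched to GENCODE M21 (GRCm38): 116640 of 119414 matched, and the rest held 0.619% to 0.774% of each library. Counts were summed per gene, rounded, filtered with filterByExpr by stage (12052 genes left) and scaled with TMM. An edgeR 4.0.16 quasi-likelihood model (R 4.3.3) with 1 coefficient per stage was fitted to all 12 samples, which share 1 spread estimate (biological coefficient of variation 20.6%). An F test and 6 two-sided contrasts were each Benjamini-Hochberg adjusted across the 12052 genes at a threshold of 0.05. SE is the log2 difference divided by the square root of its F. The scripts were tested on simulated counts. DESeq2 1.42.0, limma-voom (limma 3.58.1), library totals, counts scaled from the deposited TPM, other filters, fits to pairs of stages and fits without each library were alternatives. The depth of 1652841 to 2200563 counts gives a floor of 1.37 to 1.83 CPM. No molecular tags are described, and PCR duplicates remain in the counts.

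The members and lists were chosen with earlier results of these data known, so their counts beside those of all genes are descriptions. Members that differed in the F test have the value of every sample; the others have means, ranges or counts. From each companion list, at most 3 genes with the smallest F test p are given with their means. Genes that are otherwise named beyond this rule (Irak1, Il6ra, Tnfrsf21, Hmgb1, Ikbke and single markers) make up small counts. Any overlap with antisense exons, and transcript words of 31 bases shared with other genes, was counted in GENCODE M21. Both were taken over whole exons or transcripts, not over the 3′ ends that were read. They do not measure the share of counts affected. Replicates of a stage differed by 3.05 to 14 times the counting noise (chi-square over degrees of freedom), and each was counted as a separate sample.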

Additional observations from a re-analysis of the deposited data

How the results depend on the processing

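The direction of every single member call in a pair of stages held under all alternatives. Of 1158 checks, 972 kept the call, 186 lost it and 0 reversed. These checks include the F test calls, which have no direction and could not reverse. Without each library in turn, the number of members called ranged from 11 to 19 for the F test (15.5% to 27.7% of all genes). It was 10 to 18 for estrus against proestrus (8.9% to 19.5%) and 7 to 12 for metestrus against estrus (2.76% to 11%). The range was 0 to 1 for diestrus against metestrus (0.0405% to 1.4%) and 2 to 4 for proestrus against diestrus (4.19% to 10.3%). For metestrus against proestrus it was 0 to 1 (0.629% to 8.71%) and for diestrus against estrus 10 to 18 (15.5% to 25.4%). A minimum mean of 50 counts left 9 members tested, and the share of all genes called with each setting is given in brackets. It called 5 in the F test (33.6%), 6 for estrus against proestrus (26.6%) and 2 for metestrus against estrus (12.6%). It called 3 for proestrus against diestrus (12.2%), 0 for metestrus against proestrus (7.55%) and 4 for diestrus against estrus (33%). That filter tests fewer members, so these counts are lower by construction. Counts scaled from TPM gave, of 24 tested members, 5 for metestrus against estrus (4.23%) and 2 for proestrus against diestrus (5.57%). They gave 0 for diestrus against metestrus (0%) and 0 for metestrus against proestrus (1.62%). Limma-voom gave 3 of 30 for proestrus against diestrus (7.58%), 0 for diestrus against metestrus (0.116%) and 0 for metestrus against proestrus (3.14%). Library totals gave 0 of 30 for diestrus against metestrus (0.266%). The fits to a pair of stages alone gave 0 of 23 for diestrus against metestrus (0%) and 0 of 25 for metestrus against proestrus (0.376%). For metestrus against proestrus, DESeq2 gave 3 of 37 (3.2%) and no filter gave 2 of 37 (4.52%). The causes of these shifts were not tested. The other settings kept the counts within 1.5 times those reported. In the F test 11 members kept their call under every alternative that tested them (Rel, Nfkbia, Tnfaip2, Il1a, Tlr2, Nfkbiz, Icam1, Tlr4, Zc3h12a, Cebpb and Cebpd). Of these, Il1a and Zc3h12a passed the filter only through estrus, where they were high, and the minimum mean of 50 counts left both untested.

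Estrus and diestrus share the replicate numbers 3, 4 and 5. Same-numbered samples did not deviate together, with correlations across genes of −0.04, 0.01 and −0.02, so the numbers were not taken to pair the samples. A fit with the replicate number as a block called 17 members for diestrus against estrus (25.8% of all genes), 15 of them among the 15 called without it. The fit to the same 6 samples without the block called 18 (28.5% of all genes). Not every sample correlated best with its own number. No paired analysis was possible for the other pairs of stages because they share at most 1 number.

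Depth limits the low members. The 8 untested ones, among them Tnf, Il1b, Il6 and Tnfaip3, lay near a floor of 1.37 to 1.83 CPM in most libraries, and a difference between stages was not detectable for Il6 at this depth. With 3 samples per stage, the groups of the labels were too small for a test of outlying samples.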
